A study of Mus musculus with 4 samples.

Results

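The genes described here make, handle and burn lipids in CD8αβ+ T cells. They comprise 39 of the 27376 gene symbols on the arrays and were listed by name for their roles, with earlier results of these data known: 15 enzymes of sterol synthesis, 6 genes of sterol control and efflux, 10 genes of fatty acid synthesis and 8 of fatty acid oxidation. CD8αβ+ intraepithelial lymphocytes (IELs) from the small intestine and CD8αβ+ splenocytes (SPLs) from the spleen were sorted from male wild-type mice of 8 to 12 weeks, each sample from pooled animals and without stimulation in culture. Each group had 2 samples, hybridised singly to 1-color Agilent arrays. The comparison asks how the transcripts of T cells lodged in the gut epithelium differ from those of T cells of the same coreceptor type in the spleen. The arrays carried 70 probes for the 39 genes. A probe was tested when IELs, SPLs or both had a signal well above background on each of their arrays, which held for 67 probes of 38 genes. *Ppara*, which encodes the fatty acid-sensing receptor PPARα, stayed near background on all 4 arrays.

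Animal cells build cholesterol from acetyl-CoA through mevalonate, the isoprenoid farnesyl diphosphate, squalene and lanosterol. When membranes hold little sterol, SCAP escorts the SREBP proteins, the products of *Srebf1* and *Srebf2*, to the Golgi, where they are cut to release transcription factors that raise the enzymes of sterol and fatty acid synthesis, and INSIG proteins hold SCAP back when sterol is plentiful. Fatty acids are oxidised in mitochondria after carnitine palmitoyltransferases carry them in, and activated T cells are known to raise lipid synthesis while resting memory T cells draw on oxidation. Enterocytes, the absorptive cells beside which IELs lie, also express sterol and fatty acid genes strongly.

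Promoters of the members are shown because SREBPs act there together with the factor NF-Y. RefSeq promoters of the GRCm38.p6 build, each 300 bases from 250 before to 50 after an annotated start, were at hand for 32 of the 39 genes. Those of *Fdps*, *Fdft1*, *Sqle*, *Abcg1*, *Scd1*, *Scd2* and *Fads1* were not analysed here. Below, capitals mark the letters of the sterol regulatory element core (TCACNCCA), the E-box (CACGTG) and the NF-Y box (CCAAT), read on either strand. *Hmgcs1* at chr13:119690101-119690400 (+ strand) and *Srebf2* at chr15:82147019-82147318 (+ strand) are printed since they alone of the 32 held the core. *Mvk* at chr5:114444019-114444318 (+ strand) held the most NF-Y boxes, and *Cyp51* at chr5:4104648-4104947 (- strand) and *Insig1* at chr5:28071162-28071461 (+ strand) had the largest positive differences between the groups by their brightest probes.
Hmgcs1: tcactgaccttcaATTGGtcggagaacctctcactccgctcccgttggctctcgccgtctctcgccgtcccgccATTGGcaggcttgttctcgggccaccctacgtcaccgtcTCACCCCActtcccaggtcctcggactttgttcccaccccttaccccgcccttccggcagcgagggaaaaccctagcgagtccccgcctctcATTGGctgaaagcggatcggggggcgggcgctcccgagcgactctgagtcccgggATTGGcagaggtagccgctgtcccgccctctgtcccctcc
Srebf2: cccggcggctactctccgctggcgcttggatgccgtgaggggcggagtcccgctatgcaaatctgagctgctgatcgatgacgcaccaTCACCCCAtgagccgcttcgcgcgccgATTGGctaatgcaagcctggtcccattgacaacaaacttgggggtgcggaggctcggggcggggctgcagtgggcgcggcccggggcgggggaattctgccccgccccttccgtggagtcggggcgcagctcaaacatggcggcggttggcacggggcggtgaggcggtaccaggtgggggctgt
Mvk: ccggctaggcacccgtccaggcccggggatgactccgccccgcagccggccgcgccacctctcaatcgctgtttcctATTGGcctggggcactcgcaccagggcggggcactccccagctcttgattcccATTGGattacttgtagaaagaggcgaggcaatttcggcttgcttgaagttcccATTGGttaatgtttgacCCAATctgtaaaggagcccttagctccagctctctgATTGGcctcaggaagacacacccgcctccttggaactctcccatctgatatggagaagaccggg
Cyp51: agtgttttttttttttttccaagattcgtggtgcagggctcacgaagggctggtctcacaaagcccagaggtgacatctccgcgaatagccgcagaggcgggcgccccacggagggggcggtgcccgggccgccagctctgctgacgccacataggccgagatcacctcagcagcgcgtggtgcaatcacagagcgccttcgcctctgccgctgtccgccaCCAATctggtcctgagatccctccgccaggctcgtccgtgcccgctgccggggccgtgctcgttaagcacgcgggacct
Insig1: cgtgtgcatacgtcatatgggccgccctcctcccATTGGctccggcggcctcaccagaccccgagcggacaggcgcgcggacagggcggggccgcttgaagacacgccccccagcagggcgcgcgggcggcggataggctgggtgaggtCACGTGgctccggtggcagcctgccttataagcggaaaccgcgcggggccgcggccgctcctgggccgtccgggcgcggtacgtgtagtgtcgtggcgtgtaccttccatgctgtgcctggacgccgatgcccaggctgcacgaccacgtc

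The NF-Y box was the letter pattern that the sterol synthesis genes shared. It lay in a promoter of each of the 12 sterol synthesis genes with an entry, against 41.1% of the 27025 genes in the RefSeq table. It was present in 3 of 5 genes of sterol control and efflux, 4 of 7 genes of fatty acid synthesis and 1 of 8 genes of fatty acid oxidation. Counted by promoter, the box lay in 12 of the 15 sterol synthesis promoters, against 37.4% of all promoters. Of the 28 NF-Y matches in sterol synthesis promoters, 20 lay within the 150 bases before the start. The share of matches in that stretch was not counted over all promoters. The core TCACNCCA was found in 2 of 32 members, in both as TCACCCCA, 137 bases before the start of *Hmgcs1* and 162 bases before that of *Srebf2*, against 4.97% of all genes. The E-box was found in 7 of 32 members (*Dhcr7*, *Hsd17b7*, *Sc5d*, *Insig1*, *Scap*, *Abca1* and *Elovl5*), against 8.09% of all genes. No base was shared between matches of different motifs. These are matches of letters in a short window and were not tested.

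**Figure D1:**
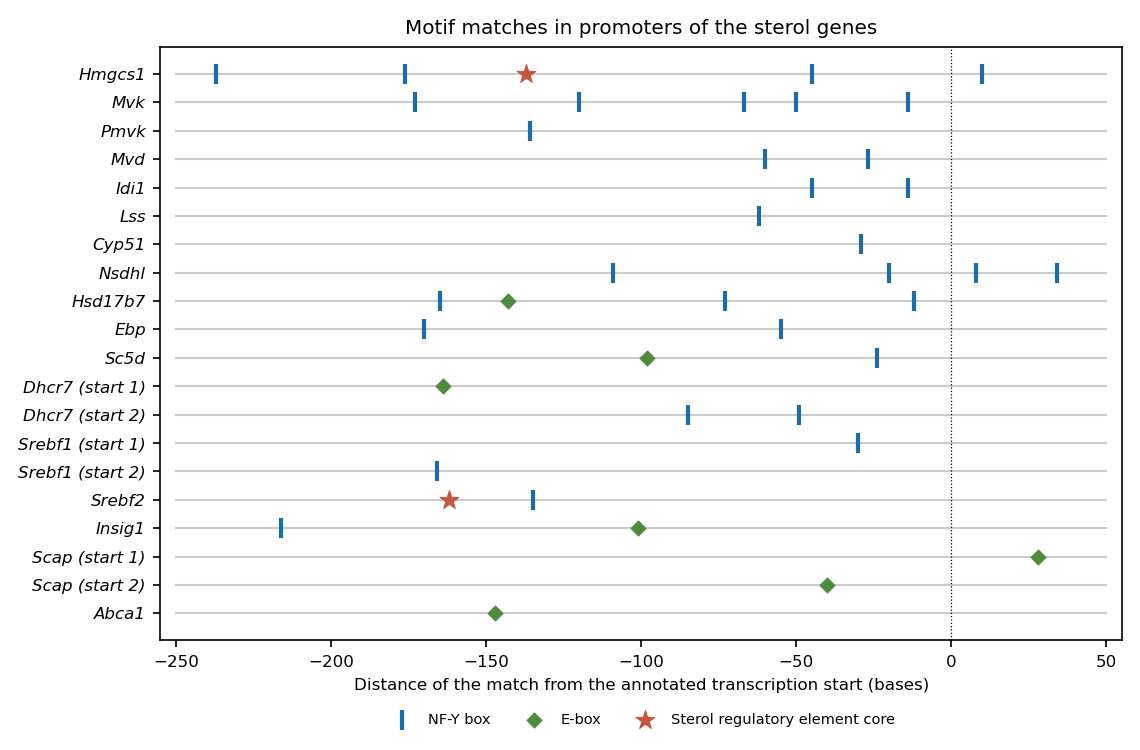
Matches of the 3 motifs in promoters of sterol genes, placed by their distance in bases from the annotated transcription start, with each line a promoter that holds at least 1 match and starts of 1 gene numbered by position. NF-Y boxes occur in promoters of all 12 sterol synthesis genes that have an entry, and the sterol regulatory element core in *Hmgcs1* and *Srebf2* alone.

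Before the values, the arrays themselves have to be described. Arrays shared slides across groups: IEL 1 and SPL 2 lay on slide 1, and IEL 2 and SPL 1 on slide 2. Over the 27911 tested probes, IEL 2 was more like SPL 1 (r = 0.992) than like IEL 1 (r = 0.946). It was also more like SPL 1 than the SPL arrays were like each other (r = 0.986). IEL 1 thus stood apart, while IEL 2 lay close to the SPL arrays. Which IEL array better represents IELs was not tested. Of the 8 CD8 T cell markers, 8 were well above background on every array, with *Cd8b1* between 7.40 and 8.11 on the log2 scale used below. The 13 enterocyte markers summed to 5.80, 2.79, 1.45 and 0.726 times the array's 75th percentile on IEL 1, IEL 2, SPL 1 and SPL 2. *Anpep* led them at -0.82, -1.03, -0.99 and -1.63 (log2), and on no array were *Apoc3* or *Mttp* well above background. The 10 secretory epithelial markers, led by *Lyz1*, summed to 61.6, 7.57, 6.28 and 5.34 in the same order. The *Lyz1* probe matches both *Lyz1* and the myeloid gene *Lyz2*, and its groups overlapped. Without it the other 9 markers summed to 36.3, 3.66, 1.35 and 0.254, and the 8 of them that were tested had both IEL arrays above both SPL arrays, with log2 differences from 3.94 to 4.90. All of these sums were highest on IEL 1 and lowest on SPL 2. The sums of blood and spleen markers were lowest on IEL 1. The 7 B cell markers, led by *Cd79b*, summed to 3.61, 20.6, 26.5 and 20.2, and the 10 myeloid markers, led by *Lyz2*, to 48.4, 69.7, 84.3 and 88.5. *Lyz2* itself was highest on IEL 1, at 5.56 against 4.81, 5.02 and 5.21 (log2), and without it the other 9 myeloid markers summed to 1.08, 41.7, 51.9 and 51.6, with IEL 1 lowest for 8 of them and not for *Cd68*. The 6 erythroid markers, led by *Hbb-b1*, summed to 1.16, 75.02, 99.1 and 116. The sort gated on TCRβ, CD3, CD45 and both CD8 chains, yet markers of epithelial, B, myeloid and erythroid cells were read in the sorted samples. *Tff3*, for example, had an intensity of 3823 on IEL 1, and *Hbb-b1* had 22398 on IEL 2. The part of these other cell types in the results below was not tested. In bulk samples, fewer cells of a type and less RNA per cell cannot be told apart.

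**Figure D2:**
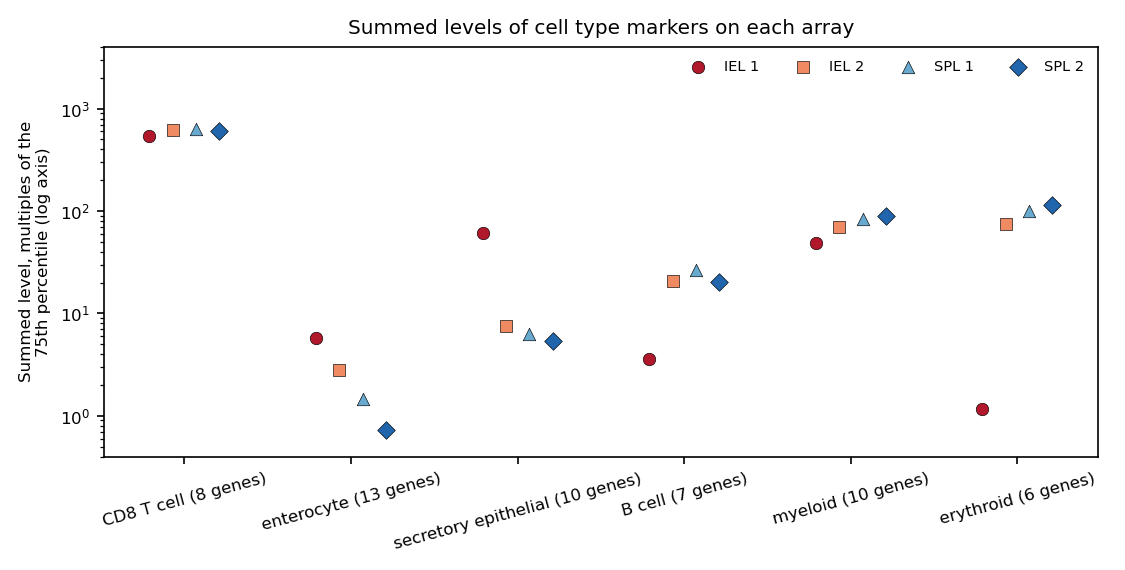
Summed levels of 6 lists of cell type markers on each array, as multiples of the array's 75th percentile on a log axis. The CD8 T cell sum differs little between the 4 arrays, the enterocyte sum is lower from array to array, from 5.80 on IEL 1 to 0.726 on SPL 2, and the erythroid sum is 1.16 on IEL 1 against 75.02 or more on the other arrays.

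Most of the lipid genes read higher in IELs, sterol synthesis enzymes above all, and none passed the test. Over the 38 tested genes the median difference was 0.46, with 30 higher and 8 lower in IELs, against 49.9% of all tested probes higher, and limma gave adjusted p-values from 0.634 to 0.933. At an unadjusted p below 0.05 in limma there were 7, against 5.73% of all tested probes. The sterol synthesis enzymes were higher in IELs than in SPLs as a list. All 15 had a positive log2 fold change, with a median of 0.94 and a range from 0.12 to 2.01, while the median over all tested probes was -0.00072. In 13 of the 15 genes both IEL arrays lay above both SPL arrays, a pattern seen in 24.4% of all tested probes. The converse, both IEL arrays below both SPL arrays, was seen in 0 of the 15 and in 24.6% of all tested probes. No single gene passed the test: limma gave adjusted p-values between 0.634 and 0.854 for the 15, and called 0% of all tested probes. At an unadjusted p below 0.05 in limma there were 5 genes (*Hmgcs1*, *Idi1*, *Sqle*, *Cyp51* and *Sc5d*). Of all tested probes, 4.63% were both below that p and higher in IELs. Of the 31 tested probes for these genes, 31 were higher in IELs and 25 were higher without overlap.

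Levels are log2 intensities relative to the 75th percentile of the array, given for IEL 1, IEL 2, SPL 1 and SPL 2 in that order, and differences are IEL minus SPL. *Cyp51*, lanosterol 14α-demethylase, read 1.77, 0.19, -0.90 and -1.16 by its brightest probe (mm9 chr5:4081471-4081530). Its difference was 2.01 ± 0.59 (SE, n = 2 a group), or 4.03-fold, with an adjusted p of 0.634 in limma. The groups did not overlap, but the IEL arrays lay farther apart than the SPL arrays, and the 3 *Cyp51* probes gave differences from 2.01 to 2.48. Without IEL 1 the *Cyp51* difference was 1.22. *Idi1*, which interconverts the isoprenoid building blocks, read 3.51, 2.10, 1.17 and 0.71 (mm9 chr13:8891386-8891445), a difference of 1.86 ± 0.55 (SE). *Sqle*, squalene epoxidase and a rate-limiting step, read 2.73, 1.45, 0.68 and 0.09, a difference of 1.70 ± 0.53 (SE). Each of these genes had the same order of arrays, with IEL 1 highest and SPL 2 lowest.

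Of the enzymes around mevalonate and its phosphates, 3 had groups that did not overlap and 1 had groups that did. *Hmgcs1*, the cytosolic HMG-CoA synthase whose promoter holds the printed core, read 3.84, 2.89, 2.22 and 2.15, a difference of 1.18 ± 0.39 (SE), and its other probes gave 0.90 and 1.48. *Mvk*, mevalonate kinase, read 0.54, -1.55, -1.96 and -2.36, a difference of 1.66 ± 0.76 (SE). Here IEL 2 was closer to the SPL arrays than to IEL 1, and without IEL 1 the *Mvk* difference was 0.61. *Pmvk*, phosphomevalonate kinase, read 2.71, 1.85, 1.48 and 1.09, a difference of 0.99 ± 0.39 (SE). *Mvd*, the decarboxylase that follows, read 0.59, 0.86, 0.73 and 0.47, and its groups overlapped with a difference of 0.12 ± 0.26 (SE).

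The remaining enzymes, from farnesyl diphosphate synthase to cholesterol, differed less than *Cyp51* and *Sqle*, which act in the same stretch. *Fdps*, farnesyl diphosphate synthase, read 1.97, 1.20, 0.81 and 0.49 (difference 0.94), and its dimmer probe gave 0.65 with overlapping groups. *Fdft1*, squalene synthase, read 1.23, 0.60, 0.27 and -0.03 (difference 0.79). *Lss*, lanosterol synthase, read 0.26, -0.63, -0.91 and -1.24 (difference 0.89). *Nsdhl*, a dehydrogenase that acts in C4 demethylation of sterols, read 0.76, -0.13, -0.42 and -0.69 (difference 0.87), with 4 probes between 0.86 and 0.99. In each of these 4 genes the arrays kept the order IEL 1, IEL 2, SPL 1, SPL 2 from high to low. *Hsd17b7*, a sterol reductase, read 2.87, 1.63, 1.24 and 1.49 (difference 0.89). *Sc5d*, sterol C5-desaturase, read 3.44, 2.18, 1.45 and 1.25 (difference 1.45), although its dimmer probe gave 0.17 with overlapping groups. Likewise 1 of the 3 *Lss* probes, matched to no RefSeq accession, gave a difference of 0.05. The last isomerase and reductase differed less. *Dhcr7*, which completes cholesterol, read 3.16, 3.08, 2.80 and 2.59 (difference 0.43), without overlap, but its dimmer probe gave 0.23 with overlap. *Ebp*, the sterol isomerase, read 4.54, 4.28, 4.22 and 4.30 (difference 0.15), with overlap between the groups.

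Over the sterol synthesis list, 12 of 15 genes followed the order IEL 1, IEL 2, SPL 1, SPL 2, against 13.8% of all tested probes. This order was noticed after the values were seen. It is also the order of the summed enterocyte and secretory epithelial markers given above. Without IEL 1, the array with the most epithelial and least blood marker signal, the list's median was 0.56 and IEL 2 lay above both SPL arrays in 14 of 15 genes, against 34.5% of all tested probes. IEL 2 itself had higher enterocyte sums (2.79) than SPL 1 (1.45) and SPL 2 (0.726). The same held for the secretory sums without *Lyz1* (3.66 against 1.35 and 0.254). Leaving out IEL 1 therefore does not set epithelial signal aside, and its part was not tested.

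**Figure D3:**
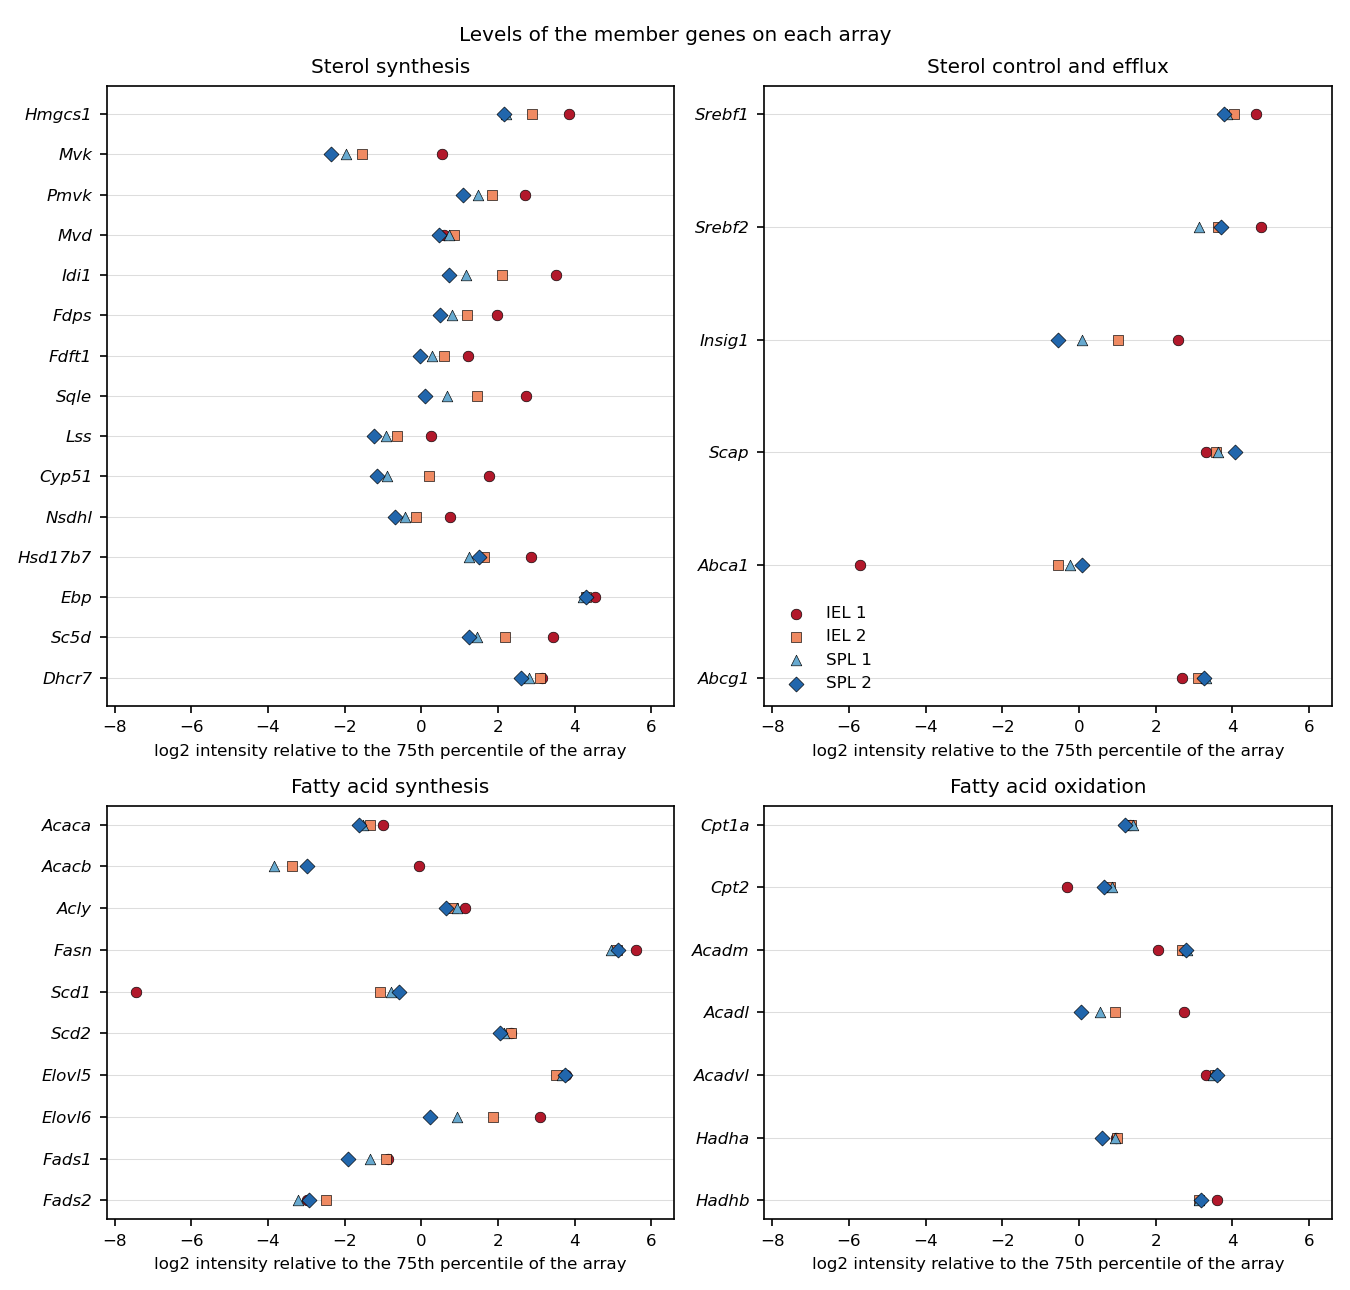
Levels of the 38 tested members on each array, as log2 intensity relative to the array's 75th percentile, in 4 panels by role, with a point for each array. In 13 of 15 sterol synthesis genes both IEL arrays lie right of both SPL arrays, and IEL 1 lies far to the left of the other arrays for *Abca1* and *Scd1*.

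Genes of sterol control and efflux had no common direction. *Insig1*, the sterol-sensing brake on SREBP processing and itself a target of SREBPs, had the largest positive difference of the 38 tested members by its brightest probe. It read 2.60, 1.03, 0.07 and -0.56 (mm9 chr5:28404246-28404305), a difference of 2.06 ± 0.61 (SE, n = 2 a group), or 4.16-fold, and its other probe gave 1.68. Both IEL arrays lay above both SPL arrays, and limma gave an adjusted p of 0.634. Without IEL 1 the *Insig1* difference was 1.27. The 2 SREBP genes differed less. *Srebf1* read 4.61, 4.04, 3.86 and 3.78 (difference 0.50), without overlap. *Srebf2*, the main activator of sterol synthesis, read 4.74, 3.62, 3.12 and 3.71 by its brightest probe (difference 0.76), with overlap, while its other 3 probes gave 0.45, 0.96 and 1.19 without overlap. *Scap*, the escort protein, read 3.31, 3.56, 3.63 and 4.07 (difference -0.41), without overlap.

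Neither cholesterol exporter passed the test. *Abcg1* read 2.70, 3.11, 3.31 and 3.25, a difference of -0.38 ± 0.26 (SE), which was -0.17 without IEL 1 and 0.09 with normexp background correction. *Abca1* read -5.70, -0.55, -0.22 and 0.07 (mm9 chr4:53043944-53044003), a difference of -3.05 ± 1.76 (SE) with an adjusted p of 0.634 in limma. IEL 1 made most of that difference: its *Abca1* intensity was 6.01 and not well above background, against 297, 411 and 636 on IEL 2, SPL 1 and SPL 2. Without IEL 1 the *Abca1* difference was -0.47, and on slide 2 it was -0.33. IEL 1 was also the array with the lowest myeloid, B cell and erythroid marker sums. The median over these 6 genes was 0.06, with 2 genes higher and 3 lower without overlap, against 24.4% and 24.6% of all tested probes.

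Most fatty acid synthesis genes were slightly higher in IELs. Of the 10 genes 8 had a positive difference, with a median of 0.33, and 4 were higher and 1 lower without overlap, against 24.4% and 24.6% of all tested probes. The median was 0.14 without IEL 1, and *Acaca*, *Acacb* and *Fads2* changed sign with normexp background correction. *Elovl6*, which extends palmitate to stearate, had the largest positive difference of the list. It read 3.10, 1.86, 0.94 and 0.24 (mm9 chr3:129341248-129341307), a difference of 1.90 ± 0.53 (SE, n = 2 a group), or 3.72-fold, with an unadjusted p of 0.0203 and an adjusted p of 0.634 in limma. *Fads1*, the Δ5-desaturase of polyunsaturated fatty acids, read -0.86, -0.93, -1.34 and -1.90 (difference 0.73), without overlap. *Fads2*, the Δ6-desaturase, read -2.98, -2.47, -3.23 and -2.93 (difference 0.36), with overlap.

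The enzymes that commit acetyl-CoA to fatty acids differed little. *Fasn*, fatty acid synthase, read 5.61, 5.10, 4.95 and 5.13 (difference 0.31). *Acly*, ATP citrate lyase, read 1.14, 0.82, 0.93 and 0.66 (difference 0.19). The groups overlapped for both. *Acaca*, the cytosolic acetyl-CoA carboxylase, read -1.01, -1.34, -1.51 and -1.63 (difference 0.40), without overlap, but its 4 probes ran from -0.03 to 0.60. *Acacb*, the mitochondrial carboxylase whose malonyl-CoA restrains fatty acid entry, read -0.06, -3.36, -3.84 and -2.99. Its difference of 1.71 ± 1.18 (SE) came from IEL 1: without that array it was 0.06. The other *Acacb* probe was well above background on 1 array of each group and was not tested.

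The stearoyl-CoA desaturases, which make monounsaturated fatty acids, did not share a direction. *Scd1* read -7.45, -1.07, -0.79 and -0.57 (mm9 chr19:44469387-44469446), a difference of -3.58 ± 2.17 (SE) with an adjusted p of 0.634 in limma. Its intensity was 1.79 on IEL 1, not well above background, against 207, 278 and 406 on IEL 2, SPL 1 and SPL 2. Without IEL 1 the *Scd1* difference was -0.39, and as for *Abca1* the low array was the one with the lowest blood marker sums. *Scd2*, the isoform best known from brain, read 2.33, 2.35, 2.15 and 2.04 (difference 0.24), without overlap. *Elovl5*, which extends polyunsaturated fatty acids, read 3.78, 3.52, 3.67 and 3.74 (difference -0.06), with overlap.

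Fatty acid oxidation showed no common direction. Over the 7 tested genes the median difference was 0.06, with 2 genes higher and 1 lower without overlap, against 24.4% and 24.6% of all tested probes. *Acadl*, the long-chain acyl-CoA dehydrogenase, was the exception in size. It read 2.74, 0.95, 0.54 and 0.05, a difference of 1.55 ± 0.67 (SE, n = 2 a group), with an adjusted p of 0.634 in limma, and without IEL 1 the difference was 0.66. *Acadm*, the medium-chain enzyme, went the other way at 2.06, 2.68, 2.83 and 2.80 (difference -0.45), without overlap, and differed by -0.14 without IEL 1. *Acadvl*, the very-long-chain enzyme, read 3.32, 3.54, 3.50 and 3.61 (difference -0.13), with overlap.

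The carnitine shuttle and the trifunctional protein differed little. *Cpt1a*, the gate of fatty acid entry into mitochondria, read 1.34, 1.37, 1.40 and 1.19 (difference 0.06). *Cpt2*, its inner-membrane partner, read -0.31, 0.82, 0.85 and 0.66 (difference -0.50). The groups overlapped for both, and the *Cpt2* difference was 0.06 without IEL 1. *Hadha* and *Hadhb*, which encode the α and β subunits of the trifunctional protein, each differed by 0.21. *Hadha* read 0.96, 0.98, 0.94 and 0.59 without overlap, and *Hadhb* 3.61, 3.13, 3.13 and 3.19 with overlap. The single *Ppara* probe read -5.85, -7.62, -7.64 and -7.73, near background throughout, so no difference is given.

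**Figure D4:**
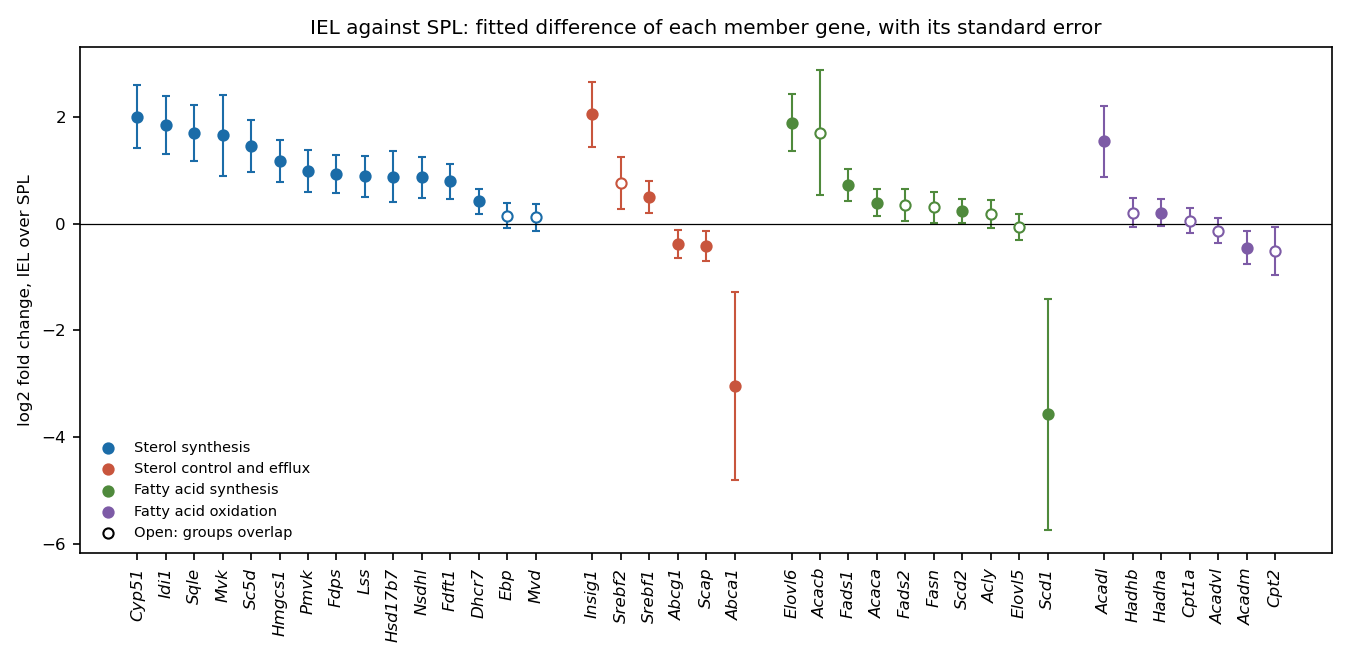
Fitted log2 fold change of each tested member, IEL over SPL, with its standard error from limma (2 arrays a group), grouped by role and sorted within it. Open points mark genes whose IEL and SPL arrays overlap. All 15 sterol synthesis genes lie above 0, and *Abca1* and *Scd1* have the widest errors.

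Within slides the sterol synthesis genes had the same direction and different sizes. On slide 1 (IEL 1 against SPL 2) the 15 sterol synthesis genes were higher in IELs by 0.12 to 2.93, with a median of 1.49, and 12 were at least 2-fold higher, against 11.8% of all tested probes. On slide 2 (IEL 2 against SPL 1) they were higher by 0.07 to 1.09, with a median of 0.39, and 1, *Cyp51*, was at least 2-fold higher, against 2.46% of all tested probes. Higher on both slides were 15 of 15, against 35.8% of all tested probes. The median of fatty acid synthesis was 0.48 on slide 1 and 0.19 on slide 2. For fatty acid oxidation it was 0.15 and 0.00. With 1 array a group on each slide there is no test within slides. Each slide held both groups, yet the IEL array of slide 1 and the extremes of the marker sums coincide, so slide and marker content cannot be told apart in the size of the difference.

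**Figure D5:**
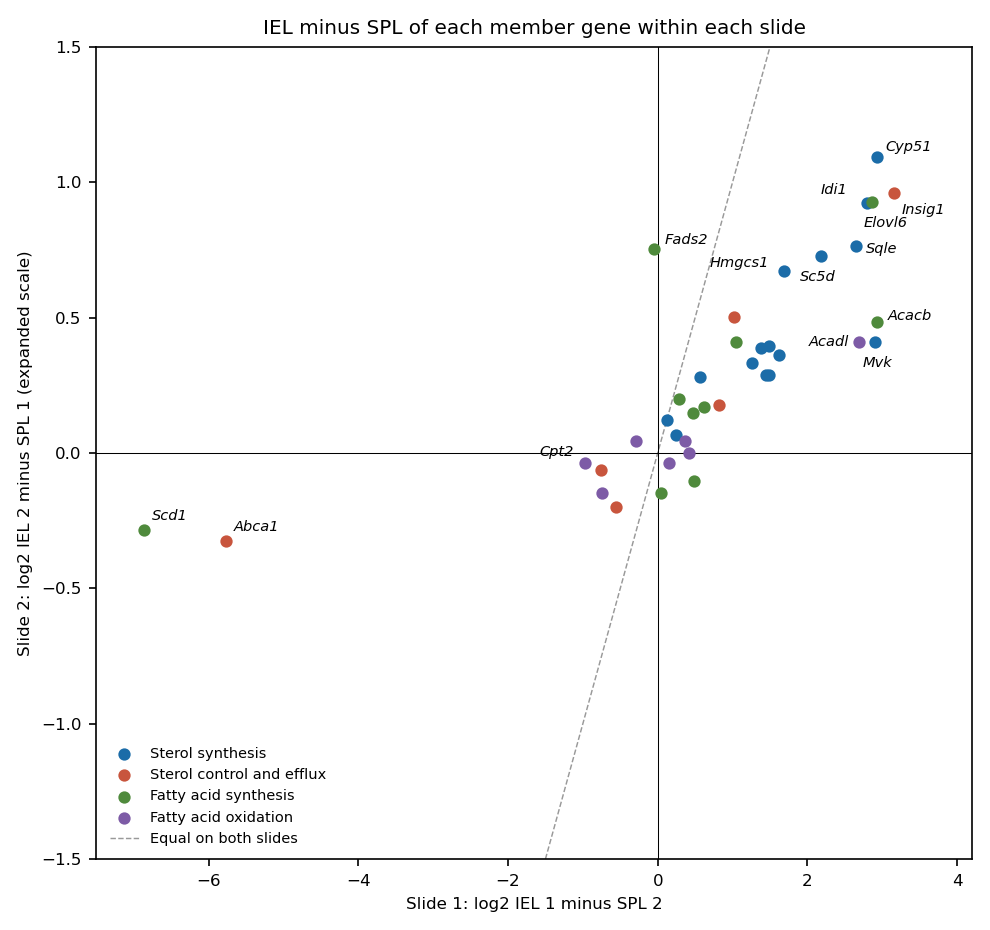
Log2 difference IEL minus SPL of each tested member on slide 1 (horizontal) and slide 2 (vertical, expanded scale), with the dashed line where both slides are equal. All 15 sterol synthesis genes are above 0 on both slides, and *Insig1*, *Cyp51*, *Idi1* and *Elovl6* lie near 3 on slide 1 and near 1 on slide 2.

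Leaving out IEL 2 changed the calls. With IEL 1 alone against both SPL arrays, limma called 17 of the 38 members, against 19.4% of all tested probes. Of these, 15 were higher in IEL 1, among them 11 of the 15 sterol synthesis genes with *Insig1*, *Elovl6*, *Acacb* and *Acadl*, and 2 were lower, *Abca1* and *Scd1*. The lone array was there assumed to vary as the SPL arrays did. Without IEL 1, or without either SPL array, 0 of 38 members were called.

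The rest of the pathways was read from longer lists. Among 23 tested other sterol genes the median difference was 0.19, and 9 were higher and 3 lower without overlap, against 24.4% and 24.6% of all tested probes. *Soat2*, the cholesterol-esterifying enzyme typical of intestine and liver, had the largest positive difference, reading 1.08, -0.76, -2.39 and -5.41 (difference 4.06). *Sc4mol*, the sterol C4-methyl oxidase, read 4.31, 3.13, 2.25 and 1.54 (difference 1.83). The lowest were *Cyp27a1*, sterol 27-hydroxylase, not well above background on either IEL array and at least 1.51-fold lower there (adjusted p of 0.634 in limma), and *Nr1h3*, the sterol receptor LXRα, with a difference of -0.95 and overlap.

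Other fatty acid genes had small list medians of opposite sign, that of oxidation being close to the 0.19 of the other sterol genes. Among 19 tested genes of synthesis and activation the median was -0.11, with 5 higher and 6 lower without overlap, against the same shares. *Dgat1*, which makes triglycerides, read 5.85, 3.46, 2.06 and 0.75 (difference 3.25), and *Mlxipl*, the carbohydrate-responsive factor ChREBP, differed by 2.07. *Elovl7*, a fatty acid elongase, read -3.05, 0.26, 0.53 and 0.50, a difference of -1.91 ± 1.15 (SE), without overlap. IEL 1 made most of it, and on slide 2 the *Elovl7* difference was -0.27. *Acsl3*, an acyl-CoA synthetase, read -3.92, -2.95, -2.44 and -1.15, a difference of -1.64 ± 0.59 (SE), without overlap. Among 24 tested genes of oxidation the median was 0.20, with 8 higher and 3 lower without overlap, against 24.4% and 24.6% of all tested probes. The extremes were *Ppard* (PPARδ, 1.33, with overlap), *Crat* (carnitine acetyltransferase, 0.72), *Acaa2* (mitochondrial thiolase, -0.59) and *Etfa* (electron transfer flavoprotein, -0.50). No gene of the 3 lists passed the adjusted threshold in limma, and unadjusted p-values were below 0.05 for 4, 3 and 0 of them, against 5.73% of all tested probes. The order IEL 1, IEL 2, SPL 1, SPL 2 was found in 8 of 23, 3 of 19 and 6 of 24 genes, against 13.8% of all tested probes.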

How the data were processed

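RNA was measured on 4 Agilent 1-color arrays, 2 of IELs and 2 of SPLs. The authors deposited scanner files with background-subtracted intensity for 45018 spots, not normalized between arrays, from Agilent Feature Extraction (10.7.3.1 per the file headers, 10.7.1.1 per the labels). They also deposited a table of log2 values with equal extremes on every array, used as an alternative. The study's text names another chip maker and no normalization. Coordinates are those of the files (mm9).

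The log2 intensity was scaled to each array's 75th percentile (312 and 435 units for IEL 1 and 2, 479 and 605 for SPL 1 and 2), so that a generally brighter array does not appear as a difference. Spots with the scanner's outlier mark were left out (98 to 179 an array), and repeat spots of a probe were averaged. The number of arrays limits the precision. Between 63.6% and 69.6% of probes were well above background. Probes with a signal well above background on both arrays of either group were tested with limma 3.58.1 in R 4.3.3, two-sided, without a block, with Benjamini-Hochberg adjustment over 27911 probes and a threshold of 0.05. The fit was tested on simulated data. With 2 arrays a group, p-values set each difference against the spread between these arrays, moderated over all tested probes. They do not measure the spread between animals. The sources used here do not say whether pools shared animals. A gene is shown by its tested probe with the highest mean level, and 60 of 70 member probes matched a RefSeq accession of the same symbol. The deviations of IEL 1 and SPL 1 from their group means had a correlation of -0.025. With 2 arrays a group this cannot show whether replicate numbers paired the samples. Motifs were searched in RefSeq promoters.

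All members are named, with the 2 highest and 2 lowest genes of each other pathway list and the brightest marker of each cell type. Members and lists were chosen with earlier results of these data known.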

Additional observations from a re-analysis of the deposited data

How the results depend on the processing

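No member and no probe passed the adjusted threshold with all 4 arrays (1600 probes at an unadjusted p below 0.05 in limma). That count of 0 was also given by each alternative with all 4 arrays that adjusts p-values, the replicate block (0 probes) and the slide as a block included. Leaving out 1 array gave 0 to 5521 called probes, the most without IEL 2. The unpaired test that the methods name called 819 probes without adjustment and 0 after Benjamini-Hochberg.

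The sterol synthesis median ran from 0.56 to 1.42 when 1 array was left out and from 0.88 to 0.98 under the other alternatives, and its 15 genes stayed higher in IELs under the alternatives run, except *Mvd*, at -0.01 without IEL 2 and at -0.01 without SPL 2. The median of sterol control and efflux moved from 0.06 to 0.52 with normexp background correction and to 0.50 with probes well above background on all 4 arrays, a filter that removes *Abca1*. The number of members lower without overlap moved from 5 to 3 under that filter, which also removes *Scd1*, and to 2 under normexp. The cause of the moves under normexp was not tested. Normexp shifted the median of all tested probes to -0.38, and no filter on dim probes shifted it to 0.15. Of 38 members, 28 kept their direction under every alternative and 10 did not, 6 of them under normexp (*Abcg1*, *Acaca*, *Acacb*, *Acadvl*, *Elovl5* and *Fads2*). A normexp fit without spots far below background, chosen after seeing the data, changed the sign of none. The planned protein comparison was not run. Signal near background limits *Ppara*, and *Abca1* and *Scd1* on IEL 1.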
